A study of Mus musculus with 8 samples.

Results

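Described here are 32 genes that make cholesterol, sense it, take it up, store it as ester, move it inside the cell and export it. They were followed in single mouse ovarian follicles. Each was found in the deposited gene counts by its gene identifier or, failing that, by its symbol, and all 32 were present among the 21997 genes listed for both sources of follicles. By role, 18 are enzymes of the synthesis pathway, 4 are regulators of it, and 10 act in uptake, ester storage, transport and export. Msmo1 is carried in the files under its older name Sc4mol.

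The study compared 2 follicle stages and 2 follicle sources in C57BL/6 ovaries, with 2 follicles and so 2 sequencing libraries in each of 4 groups. PF-WT are preantral follicles of wild type mice, and SAF-WT are small antral follicles of wild type mice. PF-TF and SAF-TF are preantral and small antral follicles from transplanted FGSCs, the female germline stem cells of the series title. A preantral follicle is an oocyte wrapped in granulosa cells with no fluid cavity, and a small antral follicle has begun to form one. The age of the mice, the hosts that received the cells, and the number of animals behind the 2 follicles of a group are not known here, so p-values measure the spread between these follicles.

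Cholesterol is built from acetyl units. Enzymes of the mevalonate pathway make an isoprene unit, Fdps joins such units, Fdft1 commits them to squalene, and the enzymes after Sqle and Lss turn the first sterol ring into cholesterol. The sensor Scap carries the transcription factor Srebf2 to where it is activated when sterols are low, and Insig1 and Insig2 hold both back when sterols are plentiful. In the ovary cholesterol is also the raw material of steroid hormones, and mouse oocytes are known to make little of it themselves and to draw on the surrounding granulosa cells. Scarb1 takes up cholesterol from high-density lipoprotein, Soat1 stores it as ester, Lipa and Lipe release it from ester, Npc1 and Npc2 carry it out of lysosomes, Stard4 moves it through the cytosol, Abca1 and Abcg1 export it, and Nr1h3 is a sterol-sensing nuclear receptor.

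Promoter sequence is shown first for 4 genes on which the results below turn or which mark the extremes of the motif search. Of the 32 genes, 25 had a promoter in the RefSeq table used (build GRCm38.p6); Fdps, Fdft1, Sqle, Scarb1, Npc1, Stard4 and Abcg1 had none there. The 250 bases before each RefSeq start were searched on both strands for TCACNCCAC, a form of the sterol regulatory element that Srebf2 binds, and for CCAAT, the box of its partner NF-Y. A gene with several listed starts was counted once if any of its windows held the motif. Capitals mark the matches; a match on the other strand reads ATTGG. Each sequence runs 5′ to 3′ on the gene's strand, and the one of Hsd17b7 stops where the annotated transcript begins, which leaves out the last of its 3 matches.
Hmgcs1, chr13:119690101-119690350, plus strand: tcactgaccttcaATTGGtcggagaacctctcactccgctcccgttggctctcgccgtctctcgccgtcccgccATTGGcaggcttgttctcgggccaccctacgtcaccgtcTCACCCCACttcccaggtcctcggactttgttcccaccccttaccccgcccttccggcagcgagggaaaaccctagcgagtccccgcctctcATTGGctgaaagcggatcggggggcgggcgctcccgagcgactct
Mvk, chr5:114444019-114444268, plus strand: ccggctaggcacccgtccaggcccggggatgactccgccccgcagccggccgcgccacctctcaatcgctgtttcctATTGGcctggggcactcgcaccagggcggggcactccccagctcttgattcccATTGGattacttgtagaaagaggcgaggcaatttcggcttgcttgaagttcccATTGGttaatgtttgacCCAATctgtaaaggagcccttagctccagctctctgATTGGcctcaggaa
Hsd17b7, chr1:169969242-169969455, minus strand: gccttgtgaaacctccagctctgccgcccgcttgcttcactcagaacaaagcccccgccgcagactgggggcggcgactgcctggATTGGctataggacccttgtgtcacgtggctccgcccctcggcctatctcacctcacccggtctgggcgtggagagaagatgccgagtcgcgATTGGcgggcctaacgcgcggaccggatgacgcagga
Abca1, chr4:53159896-53160145, minus strand: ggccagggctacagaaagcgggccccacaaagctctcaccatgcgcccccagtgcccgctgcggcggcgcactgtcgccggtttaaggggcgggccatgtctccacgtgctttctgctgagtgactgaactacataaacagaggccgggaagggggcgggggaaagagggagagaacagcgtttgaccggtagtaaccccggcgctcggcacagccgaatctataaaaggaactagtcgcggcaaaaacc

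The sterol element was found in the window of 1 synthesis gene, Hmgcs1, of 15 with a promoter, against 1.30% of the 11444 tested genes with a promoter. The CCAAT box was found in 14 of these 15 synthesis genes (Acat2 was the exception), in 3 of 4 regulators (not Scap) and in 3 of 6 uptake, storage and export genes, against 39.8% of the tested genes. Mvk held 5 copies, and Hmgcs1, Hsd17b7, Msmo1 and 1 start of Insig2 held 3. In Cyp51, Dhcr7, Idi1, Msmo1 and Tm7sf2 every CCAAT match lay inside the annotated gene rather than before it. The share over the tested genes was counted in the same way and includes such matches. Abca1, Lipe and Nr1h3 held neither motif. These are matches of letters in a short window and do not show that a factor was bound.

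**Figure D1:**
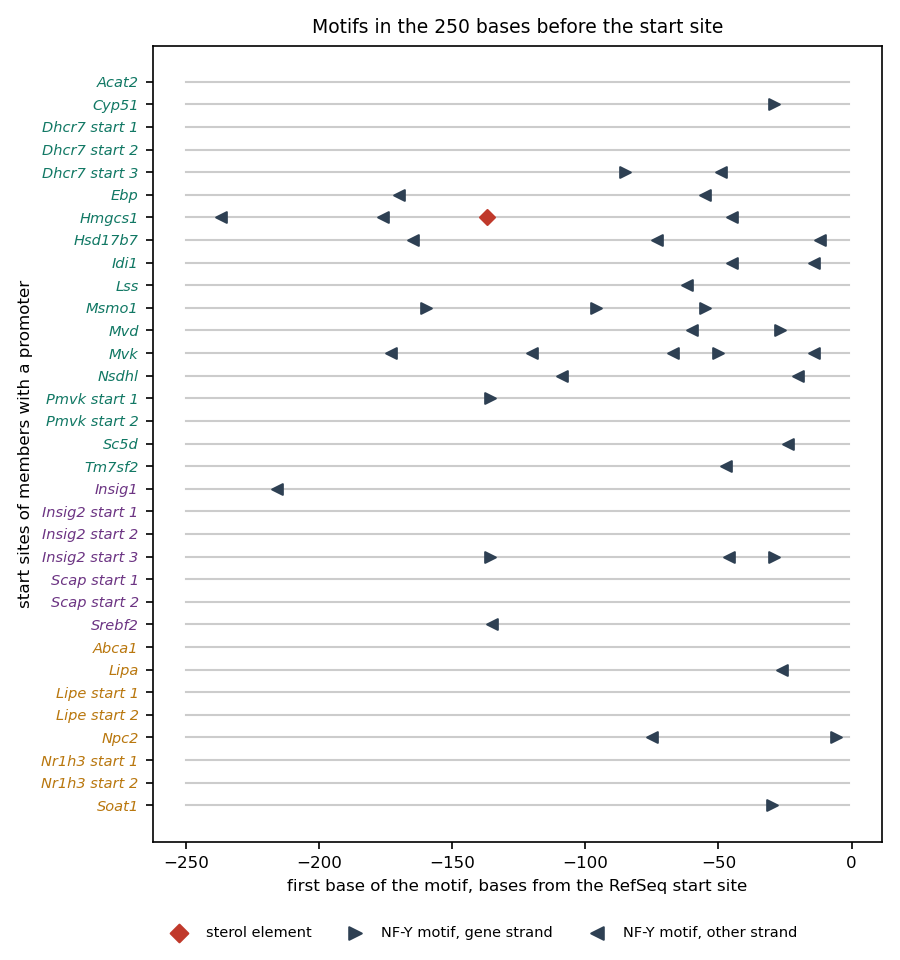
Position of each motif match (x axis, bases from the RefSeq start site) in the 250 bases before every listed start of 25 cholesterol genes (y axis; green synthesis, purple regulators, brown uptake, storage and export). Triangles are the NF-Y motif on either strand and the diamond is the sterol element. Synthesis genes carry the NF-Y motif in 14 of 15 cases, for some only inside the annotated gene, and the only sterol element is that of Hmgcs1.

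Each library held 7656108 to 9805287 counts, which were turned into CPM (counts relative to the library total) with TMM scaling. All 32 genes were among the 17925 that passed the filter on low counts and were tested with edgeR's quasi-likelihood test; a gene is called when its Benjamini-Hochberg adjusted p over all tested genes is below 0.05. Effects are log2 fold changes ± SE. Of the marker lists, the 8 oocyte genes summed to 4225 and 4673 CPM in the PF and 201 and 1610 CPM in the SAF of WT, and 13580 and 11295 CPM in the PF and 287 and 117 CPM in the SAF of TF. The 6 luteal genes summed to 41.7 to 168 CPM in the first 3 groups and to 13232 and 12803 CPM in SAF-TF. The 8 granulosa genes summed to 1910 to 3511 CPM in the preantral libraries, 555 and 658 CPM in SAF-WT, and 1570 and 2392 CPM in SAF-TF. The 7 theca genes, among which are Star and Cyp11a1, summed to 30.4 to 168 CPM in the preantral libraries, 727 and 728 CPM in SAF-WT, and 9676 and 3767 CPM in SAF-TF. Most of the SAF-TF sums came from Cyp11a1 (7827 and 2639 CPM), Star (1287 and 865 CPM) and Lhcgr (513 and 215 CPM). Lhcgr is also on the luteal list. The other 4 theca genes were called lower in SAF-TF than in SAF-WT. The 6 stroma genes summed to 25.8 to 396 CPM in the preantral libraries and 1307 to 6839 CPM in the small antral ones, and no marker gene other than the endothelial Cdh5 was at 0 in any library. The luteal sums of SAF-TF set it apart from SAF-WT and from all other libraries, so these markers leave it in doubt that SAF-TF holds small antral follicles as labelled; the label is kept, and each comparison with SAF-TF carries that doubt. In whole follicles, fewer cells of a type and less RNA per cell cannot be told apart.

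Where levels of different genes are compared, CPM was divided by the length of the longest coding transcript in kilobases. On that scale Fdps led the 32 genes in PF-WT, SAF-WT and SAF-TF, with group means of 153 ± 113, 118 ± 10.2 and 368 ± 68.2 CPM per kilobase (SD, n = 2). Fdft1 led in PF-TF, at 133 ± 16.4 CPM per kilobase. Msmo1, a demethylase of the sterol ring, ranked 3rd, 3rd, 3rd and 2nd, and Hmgcs1, which makes the precursor of mevalonate, ranked 4th in every group. Hsd17b7, which reduces the 3-keto group of sterol intermediates and can also act on estrone, moved from rank 19 in PF-WT, 18 in PF-TF and 23 in SAF-WT to rank 7 in SAF-TF. Srebf2, Lss, Abcg1 and Lipe ranked 28th or lower in all 4 groups. Lipe, the neutral ester lipase, had so few reads in SAF-WT (5 and 1 counts) that no fold is given for it there.

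Summed over the 18 synthesis genes, the level was 373 and 678 CPM per kilobase in the PF and 351 and 376 CPM per kilobase in the SAF of WT, and 453 and 433 CPM per kilobase in the PF and 1054 and 761 CPM per kilobase in the SAF of TF. Both SAF-TF libraries were thus above all 6 others. The 10 uptake, storage and export genes summed to 74.9 and 86.9 CPM per kilobase in the PF and 112 and 121 CPM per kilobase in the SAF of WT, and 106 and 96.3 CPM per kilobase in the PF and 243 and 171 CPM per kilobase in the SAF of TF. These groups did not overlap, and their order was PF-WT, PF-TF, SAF-WT, SAF-TF. Npc2 alone averaged 40.3, 42.7, 73.3 and 103 CPM per kilobase in these groups, the most of the 10 genes in each. Sums without Npc2 were not computed, so this order may rest on that gene and not on the whole list. The ratio of the synthesis sum to the uptake, storage and export sum was 4.97 and 7.80 in the PF and 3.15 and 3.11 in the SAF of WT, and 4.27 and 4.50 in the PF and 4.33 and 4.45 in the SAF of TF. On these sums, synthesis was lowest relative to traffic in SAF-WT, while PF-TF and SAF-TF overlapped. Fdft1 alone set part of that order: without it the ratio was 3.42 and 6.50 in the PF and 2.98 and 2.91 in the SAF of WT, and 2.91 and 3.24 in the PF and 4.16 and 4.29 in the SAF of TF, so that PF-TF and SAF-WT then overlapped. Npc2 weighs on the divisor of each ratio, and the ratio without Npc2 was not computed. The order therefore may not hold for the other uptake, storage and export genes. Sums over chosen genes were given no test.

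**Figure D2:**
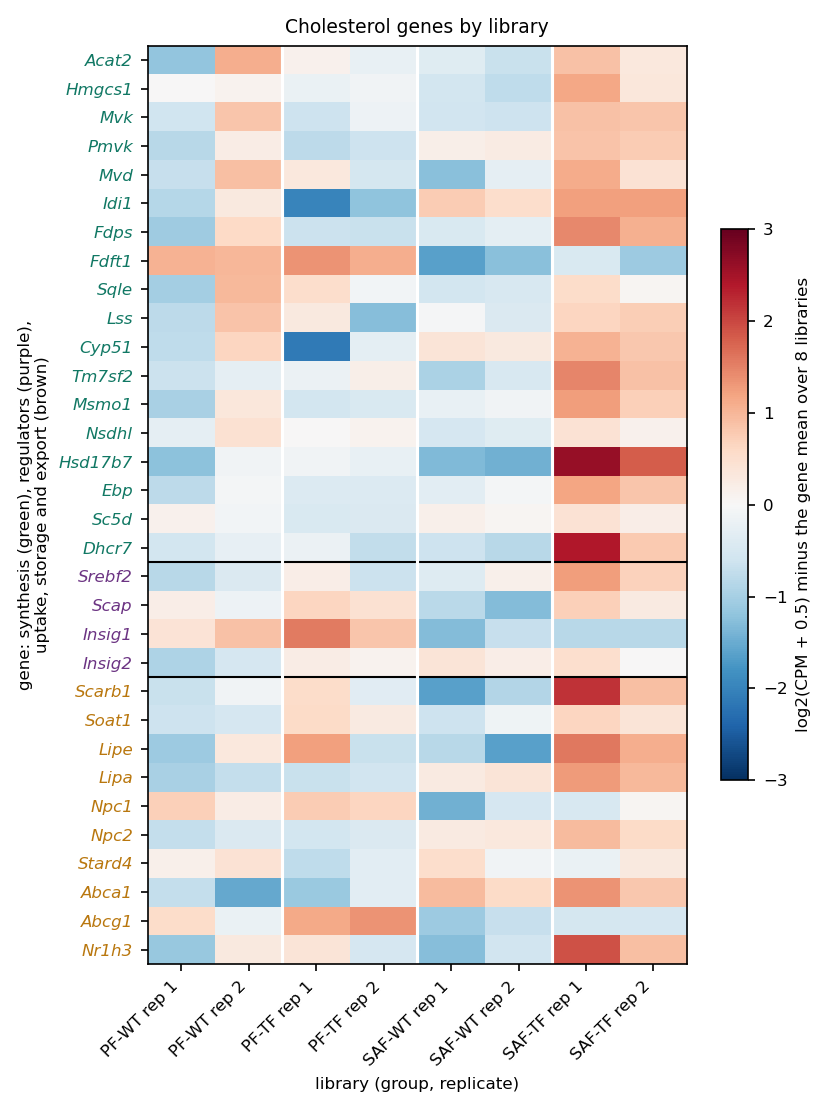
Level of each of the 32 genes (rows) in each of the 8 libraries (columns), as log2(CPM + 0.5) minus the gene's mean over the libraries, on a colour scale from -3 to 3. Most synthesis rows are high in both SAF-TF libraries and low in PF-WT replicate 1, and the Fdft1 row runs the other way, high in the 4 preantral libraries.

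The first question was how the genes change with stage in wild type follicles. In SAF-WT against PF-WT, 1 of 18 synthesis genes passed the test, and it was lower; among all tested genes 35.1% passed, 12.7% higher and 22.5% lower. That gene was Fdft1, squalene synthase (chr14:63145150-63179578, minus strand). It measured 430.3 and 420.3 CPM in the PF and 67.1 and 87.3 CPM in the SAF of WT, and 534 and 448 CPM in the PF and 152 and 97.9 CPM in the SAF of TF. All 4 preantral follicles were above all 4 small antral ones in both sources. The log2 fold change in WT was -2.46 ± 0.26, adjusted p = 1.74e-04, a 5.51-fold fall. Its share of the summed synthesis level per kilobase went from 31.2% and 16.8% in PF-WT to 5.17% and 6.29% in SAF-WT. Fdft1 overlaps the end of Ctsb on the opposite strand by 774 bases, and the strand setting of the count is not given; Ctsb was at 111 ± 66.7 CPM in PF-WT and 123 ± 29.4 CPM in SAF-WT (SD, n = 2).

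The remaining synthesis genes did not pass in WT, with log2 fold changes from -1.08 to 0.83, a list median of -0.47 against -0.20 over all genes tested, and 2 of 18 lower and 0 higher at an unadjusted p under 0.05 (edgeR; DESeq2 called 1 lower and 0 higher). Fdps gave -0.38 ± 0.42, adjusted p = 0.514, and Hmgcs1 gave -0.71 ± 0.26, adjusted p = 0.0602. Much of this rests on the PF-WT pair. Without PF-WT replicate 1 the number of lower synthesis genes was 6 (Acat2, Fdft1, Fdps, Hsd17b7, Mvk and Sqle), and without PF-WT replicate 2 Idi1 and Pmvk passed as higher and the number lower was 1. Leaving out either SAF-TF follicle, which changes the shared spread, brought the number lower to 2 by adding Hmgcs1. Beside these results, 5 of 8 oocyte markers and 6 of 8 granulosa markers fell from PF-WT to SAF-WT and 7 of 7 theca and 6 of 6 stroma markers rose; their part in the result was not tested.

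The 2 follicles of PF-WT stood apart in this pathway more than in the genome at large. Replicate 2 was above replicate 1 in 16 of 18 synthesis genes, against 49.6% of all tested genes, and at least 2-fold above it in 11, against 7.89% of all genes. The median log2 ratio of the list was 1.14 against 0.00. As examples chosen after their values were seen, Acat2, the cytosolic thiolase, was at 7.21 and 37.2 CPM, Sqle, the squalene epoxidase, at 12.2 and 49.9 CPM, and Fdps at 101 and 322 CPM in replicates 1 and 2. Fdft1, Hmgcs1 and Sc5d were nearly level in the pair. With these follicles also differed markers of several cell types. The 8 macrophage genes summed to 493 CPM in replicate 1 and 97.3 CPM in replicate 2, and the 6 stroma genes to 396 and 172 CPM. The 8 granulosa genes summed to 1910 and 3095 CPM, though replicate 2 was the higher in only 3 of 8. Among those was Amh, a granulosa hormone, at 4.85 and 40.9 CPM. The part of these markers in the result was not tested. In the other groups the list median of that ratio was 0.00 (PF-TF), 0.01 (SAF-WT) and -0.44 (SAF-TF), and in SAF-TF replicate 1 was the higher in 17 of 18 synthesis genes, with 5.56% at least 2-fold (Dhcr7 alone) against 5.25% of all genes.

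**Figure D3:**
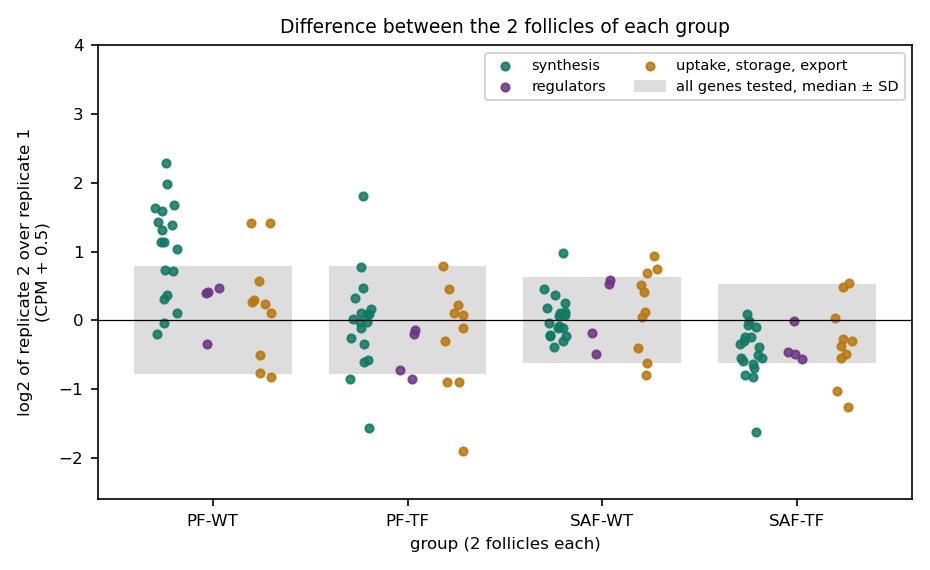
Log2 ratio of replicate 2 over replicate 1 (y axis, CPM + 0.5) for each cholesterol gene in the 4 groups (x axis), with the median ± SD of all tested genes as a grey band. In PF-WT the synthesis genes lie mostly above the line, with a median of 1.14, and in SAF-TF mostly below it, with a median of -0.44.

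Among the regulators in WT, 2 of 4 fell and 1 rose with stage, where 22.5% of all tested genes were called lower and 12.7% higher. Insig1 measured 27.9 and 38.8 CPM in the PF and 8.25 and 12.7 CPM in the SAF of WT, and 62.2 and 37.5 CPM in the PF and 11.5 and 11.5 CPM in the SAF of TF. All preantral follicles were above all small antral ones, and in WT the log2 fold change was -1.67 ± 0.36, adjusted p = 0.00626. Its relative Insig2 went the other way. It measured 19.5 and 26.3 CPM (PF) and 49.5 and 43.4 CPM (SAF) in WT, and 44.3 and 40.4 CPM (PF) and 53.7 and 38.1 CPM (SAF) in TF. PF-WT was the low group, and the other 3 overlapped. Its stage effect in WT was 1.02 ± 0.28, adjusted p = 0.0183. Scap measured 31.5 and 24.6 CPM (PF) and 15.2 and 10.8 CPM (SAF) in WT, and 42.7 and 37.3 CPM (PF) and 44.9 and 32.7 CPM (SAF) in TF. SAF-WT was below all the others, and Scap fell in WT by 1.11 on the log2 scale (SE 0.31, adjusted p = 0.0199). Srebf2 gave 0.59 ± 0.54, adjusted p = 0.422. Each of the 3 calls was lost when certain follicles were left out: Insig1 without SAF-WT replicate 1, Insig2 without PF-WT replicate 1 or either SAF-WT follicle, and Scap without PF-WT replicate 1 or SAF-WT replicate 2. The Scap call was also lost with the authors' scale factors (edgeR adjusted p = 0.0717) and after correction for GC content and length (adjusted p = 0.335).

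Of the 10 uptake, storage and export genes in WT, 3 rose, 1 fell and 6 did not pass. Of all tested genes 12.7% were called higher and 22.5% lower, and the share called in this list was near the 35.1% over all genes. The exporter Abca1 (chr4:53030787-53159895, minus strand) measured 28.8 and 16.1 CPM in the PF and 93.5 and 71.0 CPM in the SAF of WT, and 21.9 and 38.4 CPM in the PF and 123 and 84.1 CPM in the SAF of TF. Every small antral follicle was above every preantral one, and the WT stage effect was 1.88 ± 0.38, adjusted p = 0.00455. Lipa, the lysosomal ester lipase, measured 10.2 and 12.2 CPM (PF) and 24.7 and 27.0 CPM (SAF) in WT, and 12.7 and 13.5 CPM (PF) and 50.1 and 40.7 CPM (SAF) in TF. It rose with stage in WT by 1.20 ± 0.28, adjusted p = 0.00896. Npc2 measured 119 and 146 CPM (PF) and 238 and 246 CPM (SAF) in WT, and 135 and 146 CPM (PF) and 384 and 296 CPM (SAF) in TF. Here too SAF was above PF in both sources, and the WT rise was 0.86 ± 0.21, adjusted p = 0.0103. Transcripts of these 2 lysosomal proteins thus rose with that of the exporter, whereas the transcript of Npc1, the membrane partner of Npc2, went down. Npc1 measured 45.2 and 31.9 CPM (PF) and 9.74 and 19.0 CPM (SAF) in WT, and 46.6 and 43.2 CPM (PF) and 19.4 and 28.6 CPM (SAF) in TF. Its WT stage effect was -1.42 ± 0.37, adjusted p = 0.0156, and the annotation has it overlap Rmc1 on the opposite strand by 967 bases. Soat1 (0.21 ± 0.23, adjusted p = 0.508) and Scarb1 (-0.87 ± 0.48, adjusted p = 0.191) did not pass, and the Scarb1 value turned to 0.03 after correction for GC content and length. Without SAF-WT replicate 2 only Abca1 remained among the genes that rose, and the call of Npc1 was lost without PF-WT replicate 1 or SAF-WT replicate 1.

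The same stage comparison was made in follicles from transplanted cells. In SAF-TF against PF-TF, 11 of 18 synthesis genes rose, 1 fell and 6 did not pass; of all tested genes 18.2% were called higher and 25.0% lower (43.2% in either direction). The list median was 1.27 against -0.08 over all genes, and 17 of 18 log2 fold changes were positive. The pathway members that rose were Hmgcs1, Pmvk, Idi1 and Fdps before squalene, and Cyp51, Tm7sf2, Msmo1, Hsd17b7, Ebp, Sc5d and Dhcr7 on the sterol ring. None came from the steps between, where Fdft1 fell and Sqle and Lss did not pass. Acat2, Mvk, Mvd and Nsdhl did not pass either.

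Idi1, which isomerises the isoprene unit (chr13:8885501-8892451, plus strand), measured 8.13 and 18.5 CPM in the PF and 25.8 and 21.9 CPM in the SAF of WT, and 3.43 and 6.21 CPM in the PF and 36.0 and 35.8 CPM in the SAF of TF. The 2 PF-TF follicles were the lowest of the 8 and the 2 SAF-TF follicles the highest. Its stage effect in TF was 2.89 ± 0.45, adjusted p = 8.61e-04, a 7.41-fold rise. Hsd17b7 (chr1:169949535-169969241, minus strand) measured 15.5 and 34.8 CPM (PF) and 14.5 and 13.5 CPM (SAF) in WT, and 34.5 and 31.9 CPM (PF) and 229.6 and 133 CPM (SAF) in TF. The SAF-TF follicles were above the other 6, and the effect was 2.45 ± 0.39, adjusted p = 9.42e-04. Ebp, a sterol isomerase, measured 22.4 and 37.8 CPM (PF) and 31.5 and 37.6 CPM (SAF) in WT, and 29.5 and 29.1 CPM (PF) and 89.2 and 70.3 CPM (SAF) in TF. Its TF stage effect was 1.44 ± 0.30, adjusted p = 0.00371. Fdps (chr3:89093588-89101959, minus strand) measured 101 and 322 CPM (PF) and 153 and 173 CPM (SAF) in WT, and 136 and 133 CPM (PF) and 576 and 442 CPM (SAF) in TF. SAF-TF was above all other follicles, and the TF stage effect was 1.92 ± 0.43, adjusted p = 0.00604. Pmvk, the second kinase of the mevalonate pathway, measured 12.8 and 26.9 CPM (PF) and 26.3 and 27.7 CPM (SAF) in WT, and 13.2 and 14.8 CPM (PF) and 42.1 and 39.3 CPM (SAF) in TF. Within each source SAF was above PF except for PF-WT replicate 2 and SAF-WT replicate 1, which were level, and the TF rise was 1.54 ± 0.36, adjusted p = 0.00677.

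The other 6 genes that rose did so with adjusted p between 0.00850 and 0.0371. Dhcr7, the last reductase of the pathway, measured 3.28 and 4.21 CPM (PF) and 3.09 and 2.60 CPM (SAF) in WT, and 4.42 and 2.81 CPM (PF) and 28.8 and 9.01 CPM (SAF) in TF. The higher of its SAF-TF values came from replicate 1. Msmo1 measured 83.9 and 209.8 CPM (PF) and 142 and 152 CPM (SAF) in WT, and 112 and 119.8 CPM (PF) and 397 and 271 CPM (SAF) in TF. Cyp51, the lanosterol demethylase, measured 11.3 and 30.4 CPM (PF) and 25.7 and 23.7 CPM (SAF) in WT, and 4.09 and 15.6 CPM (PF) and 40.4 and 34.2 CPM (SAF) in TF. In both genes SAF-TF was the highest group. Tm7sf2, a sterol reductase, measured 3.67 and 4.88 CPM (PF) and 2.86 and 4.14 CPM (SAF) in WT, and 5.31 and 6.81 CPM (PF) and 17.6 and 11.5 CPM (SAF) in TF. Hmgcs1 (chr13:119690379-119708260, plus strand) measured 177 and 190.3 CPM (PF) and 121 and 104 CPM (SAF) in WT, and 153 and 164 CPM (PF) and 399 and 225 CPM (SAF) in TF. Both were highest in the SAF-TF follicles. Sc5d, the sterol desaturase, measured 117 and 102 CPM (PF) and 119 and 112 CPM (SAF) in WT, and 78.7 and 79.8 CPM (PF) and 145 and 122 CPM (SAF) in TF. Its rise in TF was 1.69-fold. Nsdhl (0.23 ± 0.28, adjusted p = 0.537) and Sqle (0.08 ± 0.53, adjusted p = 0.922) did not pass.

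Fdft1 again ran against its pathway, with a TF stage effect of -1.98 ± 0.25, adjusted p = 2.93e-04. Its share of the summed synthesis level per kilobase went from 31.9% and 28.0% in PF-TF to 3.90% and 3.48% in SAF-TF. Ctsb, the gene it overlaps, was at 255 ± 46.7 CPM in PF-TF and 579 ± 224 CPM in SAF-TF (SD, n = 2), a change in the opposite direction. Leaving out SAF-TF replicate 1 reduced the number of synthesis genes that rose from 11 to 5 (Ebp, Fdps, Hsd17b7, Idi1 and Pmvk); in the other 7 such fits it was 8 to 12. Tm7sf2 shares 532 bases with Vps51 on the same strand, Cyp51 shares 166 bases with Akap9 on the opposite strand, and Acat2 has a near copy, Acat3, so their counts are uncertain. Annotated genes absent from the counts also overlap members. On the same strand these include Gm43738 with Fdps (7512 bases), Gm13783 with Nr1h3 (6873 bases) and Gm42633 with Scarb1 (2764 bases). On the opposite strand Lss (11268 bases), Mvd (9822 bases) and Hmgcs1 (6190 bases) have such overlaps. Their effect on the counts is not known.

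**Figure D4:**
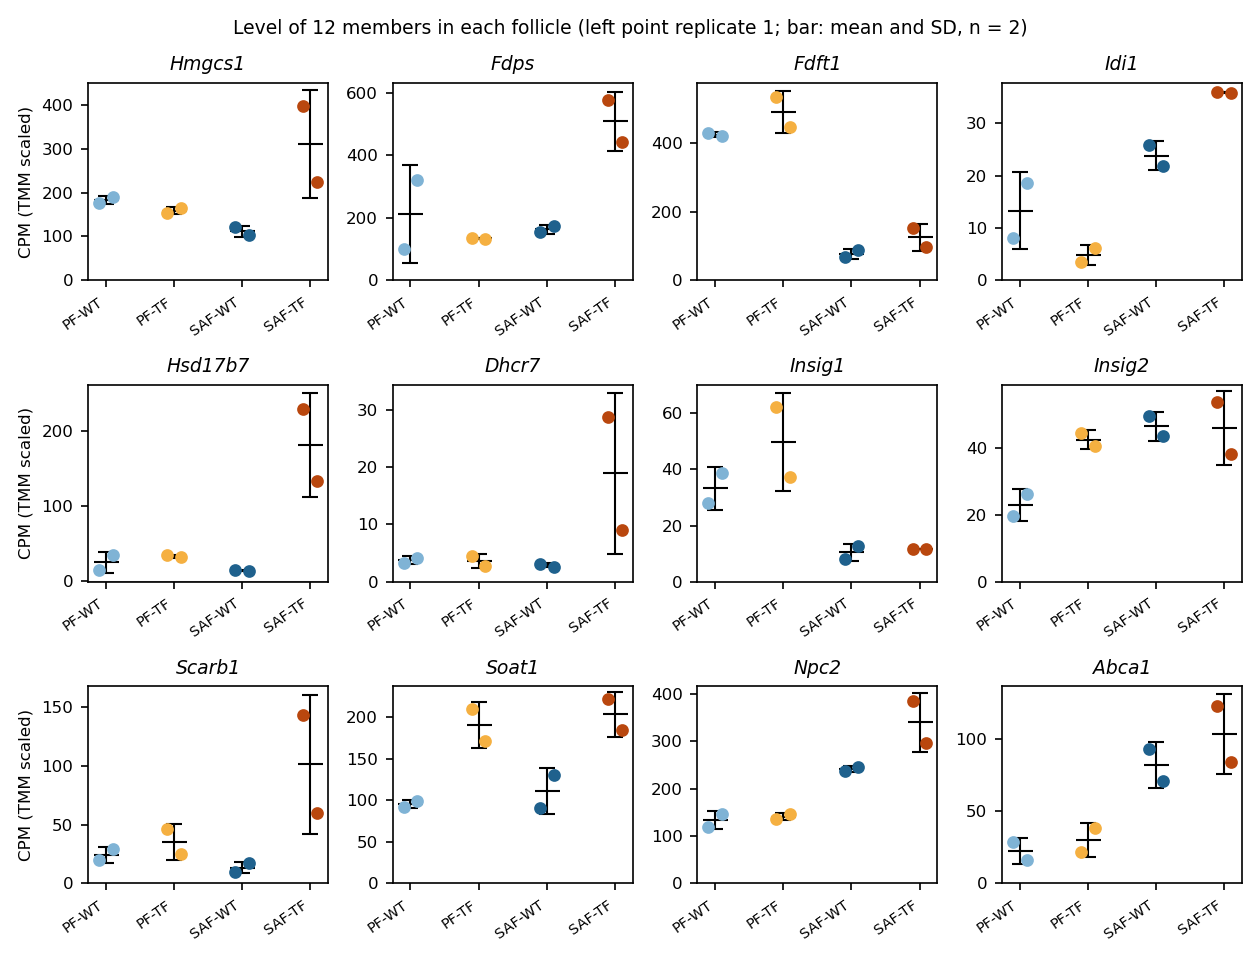
CPM of 12 cholesterol genes in every follicle (points; the left one is replicate 1) with the mean and SD of each group (bars, n = 2); the y axes start at or below 0 and differ between panels. Fdft1 and Insig1 are high in the preantral groups, Abca1 and Npc2 are high in the small antral groups, and Hsd17b7 is high in SAF-TF, at 230 and 133 CPM.

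Of the 4 regulators in TF, Insig1 fell (-2.11 ± 0.36, adjusted p = 0.00137) and the other 3 did not pass. Over all tested genes 43.2% passed. Insig2 gave 0.12 ± 0.27, adjusted p = 0.758 and Scap -0.04 ± 0.30, adjusted p = 0.919. The sign of the Scap value is not fixed: it was 0.07 with RLE or DESeq2 factors, 0.30 with the authors' factors and 0.26 after correction for GC content and length. Srebf2 itself measured 2.23 and 3.10 CPM (PF) and 3.21 and 4.85 CPM (SAF) in WT, and 5.09 and 2.61 CPM (PF) and 11.1 and 7.32 CPM (SAF) in TF. It missed the threshold in TF (1.26 ± 0.52, adjusted p = 0.0746) and passed as higher without PF-WT replicate 1 or PF-TF replicate 1, with the authors' scale factors (adjusted p = 0.0251) and after correction for GC content and length (adjusted p = 0.0280); it is named because of those fits.

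Of the 10 uptake, storage and export genes in TF, 4 rose, 1 fell and 5 did not pass, with a list median of 1.10. Of all tested genes 18.2% were called higher and 25.0% lower, and the share called in this list was near the 43.2% over all genes. Lipa rose by 1.79 ± 0.28, adjusted p = 8.43e-04, Npc2 by 1.27 ± 0.21, adjusted p = 0.00109 and Abca1 by 1.78 ± 0.37, adjusted p = 0.00405. These are the 3 genes that also rose in WT. Scarb1 (chr5:125277087-125341094, minus strand) measured 19.5 and 29.3 CPM in the PF and 9.85 and 16.9 CPM in the SAF of WT, and 46.3 and 24.7 CPM in the PF and 143 and 59.6 CPM in the SAF of TF. The SAF-TF follicles were the highest and the SAF-WT follicles the lowest of the 8, and the TF stage effect was 1.52 ± 0.47, adjusted p = 0.0266. Abcg1 measured 4.33 and 2.33 CPM (PF) and 1.03 and 1.54 CPM (SAF) in WT, and 6.64 and 7.82 CPM (PF) and 1.76 and 1.80 CPM (SAF) in TF. It fell in TF by 2.01 on the log2 scale (SE 0.55, adjusted p = 0.0154), so the 2 exporters changed in opposite directions. Soat1 (0.09 ± 0.23, adjusted p = 0.777) and Npc1 (-0.90 ± 0.36, adjusted p = 0.0708) did not pass. The Scarb1 call was lost without PF-TF replicate 2 or SAF-TF replicate 1, and that of Abcg1 without either of these or SAF-TF replicate 2.

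Beside the stage changes in TF, all 6 luteal, 6 stroma and 8 macrophage markers and 4 of 7 theca markers rose and all 8 oocyte markers fell; their part in the result was not tested. The first 2 steps of steroid synthesis, import into mitochondria by Star and side-chain cleavage by Cyp11a1, differed widely. The genes measured 4.98 and 3.21 CPM, and 6.75 and 13.2 CPM, in PF-TF against 1287 and 865 CPM, and 7827 and 2639 CPM, in SAF-TF. In SAF-TF the synthesis genes, Scarb1 and Cyp11a1 were all higher in replicate 1 than in replicate 2, apart from Lss; the granulosa markers were higher in replicate 2 in 7 of 8 cases.

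**Figure D5:**
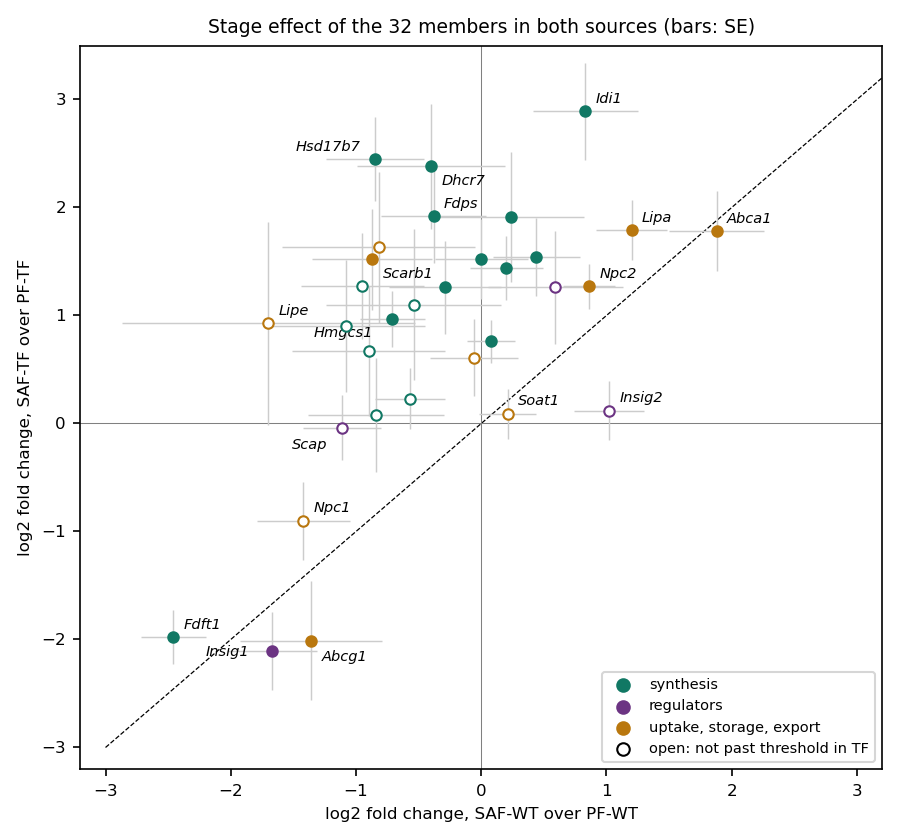
Log2 fold change with stage in WT (x axis, SAF-WT over PF-WT) against that in TF (y axis, SAF-TF over PF-TF) for the 32 genes, with SE bars and a dashed line of equal effects; filled points passed the test in TF. Synthesis genes lie above the line, and Fdft1, at -2.46 and -1.98, lies with Insig1 and Abcg1 in the lower left.

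The next question was whether the source of the follicle mattered at each stage. Between PF-TF and PF-WT none of the 32 genes passed, nor did many others: 0.218% of all tested genes did (0.0669% higher, 0.151% lower). At an unadjusted p under 0.05, 2 of 32 were higher and 3 lower in edgeR, and DESeq2 called 1 higher (Soat1) and 1 lower (Idi1). Soat1, the ester-forming enzyme, was at 92.2 and 99.3 CPM in PF-WT and 210.5 and 172 CPM in PF-TF, groups that did not overlap, with 1.00 ± 0.23, adjusted p = 0.0720. Insig2 gave 0.89 ± 0.28, adjusted p = 0.118 and Scap 0.51 ± 0.30, adjusted p = 0.363. Fdft1 gave 0.21 ± 0.24, adjusted p = 0.671, Fdps -0.65 ± 0.42, adjusted p = 0.414 and Npc2 0.08 ± 0.21, adjusted p = 0.862; without PF-WT replicate 2 the value of Fdps was 0.42. The median of the synthesis list was -0.36 against -0.03 over all genes. That list's spread within PF-WT, given above, is part of this comparison. No marker gene passed here either. At an unadjusted p under 0.05 in edgeR, 5 of 8 oocyte markers were higher in PF-TF. By the same measure 5 of 7 theca, 6 of 6 stroma, 7 of 8 macrophage and 1 of 6 endothelial markers were lower. Of 8 granulosa markers 1 was higher and 1 lower. The part of these markers in the comparison was not tested.

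Between SAF-TF and SAF-WT, 6 of 18 synthesis genes were higher and none lower in edgeR's test (11 higher and 0 lower at an unadjusted p under 0.05; DESeq2 called 8 and 0). Of all tested genes 4.61% were called higher and 5.34% lower (9.96% in either direction). All 18 log2 fold changes were positive, with a median of 1.17 against 0.00 over all genes. This comparison and the stage comparison in TF share the SAF-TF libraries, so the 2 are not independent of each other.

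Hsd17b7 had the largest change of the 18, at 229.6 and 133 CPM in the 2 SAF-TF follicles against 14.5 and 13.5 CPM in SAF-WT. The log2 fold change was 3.69 ± 0.41, adjusted p = 0.00222, a 12.9-fold difference, and it was the only one of the 6 that passed in all 8 fits with 1 library left out. Dhcr7 gave 2.72 ± 0.59, adjusted p = 0.0234 and Tm7sf2 2.05 ± 0.44, adjusted p = 0.0230. Fdps gave 1.65 ± 0.43, adjusted p = 0.0427, Hmgcs1 1.48 ± 0.27, adjusted p = 0.0127 and Ebp 1.21 ± 0.29, adjusted p = 0.0346. The sterol end of the pathway and Hmgcs1, which makes the precursor of mevalonate, were thus both represented. Msmo1 (1.18 ± 0.37, adjusted p = 0.0718) and Fdft1 (0.69 ± 0.25, adjusted p = 0.101) did not pass. The number that passed was 1 without SAF-TF replicate 1, SAF-WT replicate 1 or SAF-WT replicate 2, 4 without SAF-TF replicate 2 and 10 without PF-WT replicate 1, and Fdps lost its call after correction for GC content and length.

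Of the regulators Scap was higher (1.58 ± 0.31, adjusted p = 0.0166), while Insig2 (-0.02 ± 0.27, adjusted p = 0.984) and Insig1 (0.14 ± 0.36, adjusted p = 0.837) differed by less than their error. The sign of the Insig2 value turns to 0.13 with scaling by library totals. The call of Scap was lost without SAF-TF replicate 1 or either SAF-WT follicle, and after correction for GC content and length.

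Of the uptake, storage and export genes 3 of 10 were higher and none lower in edgeR's test (6 higher and 0 lower at an unadjusted p under 0.05; DESeq2 called 4 and 0). Over all tested genes edgeR called 4.61% higher and 5.34% lower. Scarb1 was at 143 and 59.6 CPM in the 2 SAF-TF follicles against 9.85 and 16.9 CPM in SAF-WT, with a log2 fold change of 2.92 ± 0.50, adjusted p = 0.0108. Soat1 gave 0.88 ± 0.23, adjusted p = 0.0445. Its 2 values in SAF-TF, 222 and 184 CPM, were close to those of PF-TF. Nr1h3, the sterol-sensing receptor, measured 1.05 and 3.66 CPM (PF) and 0.916 and 1.77 CPM (SAF) in WT, and 3.98 and 1.90 CPM (PF) and 12.4 and 5.86 CPM (SAF) in TF. Its difference between the small antral groups was 2.75 ± 0.76, adjusted p = 0.0489, with only 8 and 15 counts in the SAF-WT libraries. Npc2 (0.49 ± 0.20, adjusted p = 0.150) and Abca1 (0.33 ± 0.36, adjusted p = 0.578) did not pass. Of these 3 calls only Scarb1 was left without SAF-WT replicate 2 or SAF-TF replicate 2, and none without SAF-WT replicate 1 or SAF-TF replicate 1. The Soat1 call was also lost with RLE factors (adjusted p = 0.0526) and the authors' factors (adjusted p = 0.0523), and that of Nr1h3 after correction for GC content and length (adjusted p = 0.103). Beside them, 6 of 6 luteal markers and 3 of 8 macrophage markers were higher in SAF-TF, 3 of 7 theca markers were higher and 4 lower, and 2 of 8 granulosa markers were higher; their part in the result was not tested.

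Last, the stage effect in TF was compared with that in WT by their difference. Of the 32 genes 1 passed, against 0.904% of all tested genes (0.658% with a higher and 0.245% with a lower effect in TF). For Hsd17b7 the effect was -0.85 in WT and 2.45 in TF, and the difference was 3.29 ± 0.55, adjusted p = 0.0295. That call was lost without SAF-WT replicate 1, SAF-WT replicate 2 or SAF-TF replicate 1. All 18 synthesis genes had a more positive effect in TF (16 without PF-WT replicate 2, when Acat2 and Sqle turned), with a median difference of 1.60 against 0.06 over all genes; 11 of them had an unadjusted p under 0.05 and DESeq2 called 4 (Fdps, Hmgcs1, Hsd17b7 and Idi1). Fdps gave 2.30 ± 0.60, adjusted p = 0.111 and Fdft1 0.49 ± 0.35, adjusted p = 0.564. The number that passed was 3 without PF-WT replicate 1 and 2 without SAF-TF replicate 2. For the other roles the differences were mixed, with list medians of 0.12 for the regulators and 0.55 for uptake, storage and export, and no gene passed in edgeR (at an unadjusted p under 0.05, 1 regulator higher and 1 lower, and 2 of 10 traffic genes higher; DESeq2 called Scarb1). Insig2 gave -0.90 ± 0.39, adjusted p = 0.304, Scap 1.06 ± 0.42, adjusted p = 0.274, Npc2 0.41 ± 0.29, adjusted p = 0.558 and Soat1 -0.12 ± 0.33, adjusted p = 0.915.

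Over the 5 comparisons 23 of the 32 genes (71.9%) passed at least once in edgeR, against 53.6% of all tested genes, and 9 passed in none. DESeq2 called 25 of the 32, with Mvk and Lipe among them, against 56.8% of all genes. Mvk, the first mevalonate kinase, measured 5.51 and 15.7 CPM (PF) and 5.61 and 5.44 CPM (SAF) in WT, and 5.42 and 7.72 CPM (PF) and 16.3 and 15.5 CPM (SAF) in TF. Both SAF-TF values were at the level of PF-WT replicate 2 and above the other 5. Mvd, the mevalonate decarboxylase, measured 4.46 and 14.5 CPM (PF) and 2.86 and 6.15 CPM (SAF) in WT, and 9.62 and 5.11 CPM (PF) and 17.0 and 10.4 CPM (SAF) in TF. Acat2 measured 7.21 and 37.2 CPM (PF) and 13.3 and 10.6 CPM (SAF) in WT, and 18.8 and 14.7 CPM (PF) and 31.7 and 21.5 CPM (SAF) in TF, and its range over the 8 libraries was set by the PF-WT pair. Sqle measured 12.2 and 49.9 CPM (PF) and 17.0 and 17.9 CPM (SAF) in WT, and 36.5 and 23.8 CPM (PF) and 37.3 and 26.2 CPM (SAF) in TF, also with its lowest and highest values in PF-WT. Lss, which closes the sterol ring, measured 2.49 and 8.75 CPM (PF) and 4.47 and 3.31 CPM (SAF) in WT, and 5.75 and 1.60 CPM (PF) and 7.58 and 8.11 CPM (SAF) in TF. Its levels were low throughout. Nsdhl, a sterol dehydrogenase, measured 36.3 and 60.4 CPM (PF) and 31.2 and 34.0 CPM (SAF) in WT, and 44.5 and 47.9 CPM (PF) and 59.9 and 48.5 CPM (SAF) in TF, the narrowest spread of these genes in relative terms. Stard4 measured 18.9 and 22.7 CPM (PF) and 24.3 and 15.6 CPM (SAF) in WT, and 9.62 and 13.4 CPM (PF) and 14.5 and 20.6 CPM (SAF) in TF. Its groups overlapped except that both PF-TF follicles were the lowest. Lipe measured 0.393 and 1.88 CPM (PF) and 0.573 and 0.118 CPM (SAF) in WT, and 3.98 and 0.701 CPM (PF) and 5.27 and 3.60 CPM (SAF) in TF, and Srebf2 is given above. In the annotation Lipe shares 19184 bases with another gene on the opposite strand, so its counts are uncertain.

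A further 34 genes of the pathway and of lipoprotein handling were listed that are not among the 32; 30 of them could be tested, and Lcat and Lipc were not analysed here. With stage in WT 4 rose and 5 fell (30.0% of the 30, against 35.1% of all genes), led by Cav1, the caveolar cholesterol-binding protein (3.84 ± 0.47, adjusted p = 3.52e-04), the lipoprotein receptor Vldlr (3.24 ± 0.43, adjusted p = 5.61e-04) and the ester hydrolase Nceh1 (-2.24 ± 0.33, adjusted p = 8.96e-04). With stage in TF 6 rose and 5 fell (36.7% against 43.2%), led by Cav1 (5.27 ± 0.52, adjusted p = 7.54e-05), the phospholipid transfer protein Pltp (3.27 ± 0.65, adjusted p = 0.00314) and the lipoprotein lipase Lpl (-1.37 ± 0.29, adjusted p = 0.00416). Cav1 is also abundant in endothelium and stroma. With stage, 4 of 6 endothelial markers rose in each source and 1 fell in WT, and all 6 stroma markers rose in both. The part of these cell types in the Cav1 result was not tested. None passed between the preantral groups in edgeR (5 higher and 2 lower at an unadjusted p under 0.05; DESeq2 called 0 higher and 1 lower). Between the small antral groups 3 were higher and 1 lower (13.3% against 9.96%), led by Nr1h2, the second sterol-sensing receptor (1.78 ± 0.38, adjusted p = 0.0212), Nceh1 (1.48 ± 0.32, adjusted p = 0.0234) and the endocytic receptor Lrp1 (1.46 ± 0.34, adjusted p = 0.0307). Of these, Nr1h2 and Lrp1 lost their calls after correction for GC content and length (adjusted p = 0.131 and 0.217), Lrp1 without any single one of the 4 small antral follicles, Nr1h2 without SAF-TF replicate 1 or either SAF-WT follicle, and Nceh1 without SAF-WT replicate 1 or either SAF-TF follicle. The shares called in this wider list lay near those over all genes. None passed in the test of the difference between stage effects in edgeR (6 higher and 2 lower unadjusted; DESeq2 called none).

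The split of calls over all genes depends on the scaling. With stage in WT 36.0% of called genes were higher, against 53.5% with the authors' factors and 48.6% after correction for GC content and length. With stage in TF it was 42.1%, against 56.2% with the authors' factors, and between the small antral groups 46.3%, against 65.1% with library totals. The median of all genes moved with it: in WT by 0.16 (RLE), -0.13 (library totals), 0.34 (authors' factors) and 0.29 (GC and length), in TF by 0.12 (RLE), 0.35 (authors' factors) and 0.20 (GC and length), and between the small antral groups by 0.13 (library totals). Relative to that median the synthesis list stayed at -0.27 to -0.15 with stage in WT, 1.28 to 1.35 with stage in TF and 0.84 to 1.18 between the small antral groups over these scalings.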

How the data were processed

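Libraries of 8 single follicles were made from polyadenylated RNA with a SMARTer Ultra Low Input protocol, per the labels' protocols. The submitters' processing notes name HISAT2 2.0.1 and the build GRCm38; no read counter, annotation or strand setting is given in the sources used here. As deposited by the authors, the values are whole-number counts per gene and library in 2 tables, 1 per source. Their normalized columns are a signal, group means of counts after 1 scale factor per library, per the file headers, and these factors served here only as an alternative scaling. The 21997 genes in both tables were analysed together; 132 listed only for TF and 141 only for WT were left out.

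Counts were filtered with filterByExpr, scaled with TMM factors (0.8903 to 1.074) and fitted in edgeR 4.0.16 (R 4.3.3) with 1 mean per group over all 8 libraries, which leaves 4 residual degrees of freedom; 17925 genes were tested and p-values adjusted over all of them. The common biological coefficient of variation was 0.303. The 5 contrasts were: stage within each source, source within each stage, and the difference of the stage effects. Every pair of replicates differed beyond counting noise (chi-square per degree of freedom 10.19 to 36.83). The fits were tested on simulated data. Alternatives were other scalings, other low-count filters, DESeq2 1.42.0, a replicate block, a fit of the 4 libraries compared, leaving out each library, and a correction for GC content and transcript length. Lengths and gene coordinates come from GENCODE vM21 on GRCm38, and promoters from RefSeq GRCm38.p6. The genes and lists were chosen with earlier results of these data known. In each contrast and role up to 6 called genes with the smallest p, and up to 2 uncalled genes with the largest mean CPM, are given with their statistics; genes of the wider pathway are named when among the 3 called with the smallest p.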

Additional observations from a re-analysis of the deposited data

Results flagged for a closer look

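The stage effect of Hsd17b7, the sterol ketoreductase, differed between the 2 sources in the test of the difference itself. The effect in TF minus that in WT was 3.29 on the log2 scale (SE 0.55, edgeR adjusted p = 0.0295 over all tested genes), with 15.5 and 34.8 CPM (PF) and 14.5 and 13.5 CPM (SAF) in WT, and 34.5 and 31.9 CPM (PF) and 230 and 133 CPM (SAF) in TF. It was lost without SAF-WT replicate 1, SAF-WT replicate 2 or SAF-TF replicate 1, and with a replicate block.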

How the results depend on the processing

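Counts of cholesterol genes called were mostly stable under other scalings, filters and tools, and less so when a follicle was left out. With stage in WT, 1 synthesis gene was higher and 1 regulator (Insig1, not Scap) lower with the authors' factors, the same 1 regulator was lower after correction for GC content and length (an alternative chosen after seeing the data), and 2 synthesis genes were lower with library totals or with only the 4 libraries compared. With stage in TF, 1 regulator was higher with the authors' factors or the GC and length correction. With a filter at 10 CPM 0 uptake, storage and export genes were lower. That filter removed Abcg1, whose highest group mean was 7.23 CPM, before testing. Abcg1 had 16 counts in each SAF-TF library. The same filter removed Nr1h3, whose highest group mean was 9.13 CPM, and with it the Nr1h3 call between the small antral groups. Between the preantral groups the number of all genes called was 39 and became 16 (library totals), 65 (authors' factors), 207 (no low-count filter), 1322 (DESeq2), 6 (replicate block) and 3 (the 4 libraries); DESeq2 called 1 synthesis gene lower and 1 uptake, storage and export gene higher. Between the small antral groups all calls numbered 1785 and became 2849 (DESeq2), 1069 (replicate block), 3921 (the 4 libraries) and 1064 (GC and length); with the 4 libraries 12 synthesis and 5 uptake, storage and export genes were higher, with the replicate block 1 of the latter, and with the GC and length correction 0 regulators. In the difference of stage effects all calls numbered 162 and became 810 (DESeq2) and 74 (replicate block), and synthesis genes higher were 4 (DESeq2), 0 (replicate block) and 2 (GC and length), with 1 uptake, storage and export gene in DESeq2. The replicate numbers are shared between groups by the labels, but deviations of same-numbered libraries correlated at only -0.1199 to 0.1132, so they were not taken as pairs; with the block the calls lost were Fdps (adjusted p = 0.0584), Ebp (0.0566), Soat1 (0.0782) and Nr1h3 (0.0837) between the small antral groups, which took the synthesis genes higher from 6 to 4, Tm7sf2 (0.0529) with stage in TF and Hsd17b7 (0.0566) in the difference of stage effects. The cause of these shifts was not tested.

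Signs reversed with other settings for 4 of the effects given with statistics. Npc2 between the preantral groups was -0.00 with the authors' factors and -0.11 with the GC and length correction. Insig2 between the small antral groups was 0.13 (library totals), 0.01 (10 CPM filter) and 0.03 (the 4 libraries). Scap with stage in TF was 0.07 (RLE), 0.30 (authors' factors), 0.00 (10 CPM filter), 0.07 (DESeq2), 0.04 (the 4 libraries) and 0.26 (GC and length), and Scarb1 with stage in WT was 0.03 (GC and length).

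Leaving out 1 follicle at a time (8 fits), the calls over all genes ranged from 3075 to 6594 with stage in WT, 5136 to 8167 with stage in TF, 1 to 935 between the preantral groups (935 without PF-WT replicate 2), 143 to 2464 between the small antral groups (143 without SAF-TF replicate 1) and 28 to 343 in the difference of stage effects. Counts of cholesterol genes ranged in WT from 0 to 2 synthesis genes higher and 1 to 6 lower, 0 to 1 regulators higher and 1 to 2 lower, and 1 to 3 uptake, storage and export genes higher and 0 to 1 lower. With stage in TF they ranged from 5 to 12 synthesis genes higher, 0 to 1 regulators higher, and 3 to 5 uptake, storage and export genes higher and 0 to 1 lower. Between the small antral groups the ranges were 1 to 10, 0 to 1 and 0 to 4 genes higher, and in the difference of stage effects 0 to 3 synthesis genes higher. The sign turned in at least 1 of these fits for 13 of the 32 genes with stage in WT, 4 with stage in TF, 18 between the preantral groups, 3 between the small antral groups and 5 in the difference of stage effects (Abca1, Acat2, Insig1, Soat1 and Sqle). With stage in WT these included Acat2 (-1.52 to 0.73), Sqle (-1.40 to 0.51) and Lss (-1.05 to 0.64). Among the effects given with statistics the sign turned, with stage in WT, for Fdps (-0.87 to 0.69) and Soat1 (-0.07 to 0.44); with stage in TF, Insig2 (-0.15 to 0.34), Scap (-0.29 to 0.17), Soat1 (-0.05 to 0.35) and Sqle (-0.19 to 0.52); between the preantral groups, Fdps (-1.21 to 0.42) and Npc2 (-0.01 to 0.24); between the small antral groups, Insig1 (-0.14 to 0.48) and Insig2 (-0.28 to 0.21); and in the difference of stage effects, Soat1 (-0.35 to 0.16). None of these effects passed the threshold in the fit of all 8 libraries. A fit without 1 follicle assumes that the lone follicle of its group varies like the others.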
